A study of Mus musculus with 14 samples.

Results

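The transcripts that the study assembled from mouse liver and predicted to be coding included 1184 multi-exon loci without a numeric reference identifier, which are described here. They were chosen from the deposited coding annotation as transcripts whose gene identifier was not a number and that had at least 2 exons. The annotation held 13439 transcripts in all, of which 11605 had been added to 5019 genes with a numeric reference identifier and 1834 had been given an identifier of their own. Of those 1834, 650 had 1 exon and 1184 had 2 or more. Each of the 1184 loci had 1 transcript, so that locus and transcript are the same unit below.

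The RNA came from the livers of male Apoe-deficient mice, C57BL/6 by the labels and C57BL/6J in the paper. Apolipoprotein E clears lipoproteins from the blood. Apoe had 9403 expected counts with the control diet and 8293 with erythrodiol in the gene table, and whether these reads come from the part of the gene that was altered was not tested. The control group, 7 pools of RNA from a few mice each, ate a Western diet. The erythrodiol group, another 7 pools, ate the same diet with erythrodiol, a triterpene of the olive, at a dose of 10 mg/kg of mouse. By the labels the mice were 8 weeks old and were fed for 8 weeks. The duration of feeding differs between the labels and the paper. The libraries held between 34856340 and 55244294 clean reads with the control diet and from 47669656 to 48058606 with erythrodiol. Of these reads, 76.66% to 94.64% of the control libraries and 93.48% to 94.55% of the erythrodiol libraries mapped to the genome. In the gene table of the same libraries, 35 of 35 marker genes of liver cell types had counts above 0 in both groups, and the 8 hepatocyte markers summed to 13676188 and 14187191 counts, against 504 and 468 for the 4 markers of T and B cells. The annotation was made once for all libraries, and 0 of the 1184 loci had a row in the gene table, so that no level per library or per group belongs to a locus and the diets were not compared for them.

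A gene that is copied from DNA into RNA is usually made of exons, which are kept, and introns, which are cut out. An assembler rebuilds exon chains from spliced reads, and a chain that is not assigned to a gene of the reference annotation is given an identifier of its own. A predictor of coding potential then scores the open reading frame and its resemblance to known proteins, which pseudogenes and copies of genes also have. Loci of this kind can therefore be genes, parts of genes, copies of genes on alternate sequences of the genome, or non-coding RNA with an open reading frame. To place them, the loci on chromosomes were laid on the GENCODE M21 annotation of the same genome build, GRCm38, intron by intron.

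Splice junctions of 6 loci are shown, because they give the sequences that these loci share with known genes. In each line, the last 40 bases of the upstream exon are in lower case and the first 40 bases of the downstream exon in capitals, 5′ to 3′ on the strand of the locus, read from GENCODE M21 transcripts that hold the same intron. The first is a long non-coding RNA gene, the second a pseudogene of a cytochrome P450, the third a protein-coding gene, and the last 3 are copies in the family of major urinary proteins, which are small lipid-binding proteins that the liver secretes. The 3 loci of major urinary proteins were chosen for this after their values were seen.
BGI_novel_G000040, C730036E19Rik, intron chr1:151139030-151139701, plus strand: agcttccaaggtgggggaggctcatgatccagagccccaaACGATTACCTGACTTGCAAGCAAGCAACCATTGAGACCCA
BGI_novel_G000938, Cyp2d37-ps, intron chr15:82691595-82692812, minus strand: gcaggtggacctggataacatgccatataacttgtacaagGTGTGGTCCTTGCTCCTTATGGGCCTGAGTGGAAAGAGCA
BGI_novel_G000713, Camta2, intron chr11:70684173-70686062, minus strand: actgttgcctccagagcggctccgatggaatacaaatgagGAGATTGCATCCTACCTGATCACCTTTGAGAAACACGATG
BGI_novel_G000227, Mup13, intron chr4:61227727-61228064, minus strand: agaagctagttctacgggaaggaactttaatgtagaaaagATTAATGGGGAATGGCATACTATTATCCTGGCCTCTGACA
BGI_novel_G000233, Mup15, intron chr4:61439199-61439536, minus strand: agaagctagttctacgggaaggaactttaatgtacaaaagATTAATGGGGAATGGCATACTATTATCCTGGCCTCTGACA
BGI_novel_G000240, Mup16, intron chr4:61518987-61519324, minus strand: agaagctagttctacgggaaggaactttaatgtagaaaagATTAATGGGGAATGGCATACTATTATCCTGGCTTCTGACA

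Most loci were short chains. The median was 5 exons, with quartiles of 3 and 7, and the highest number was 40. Of the 1184 loci, 731 (61.7%) had 2 to 5 exons, 308 (26.0%) had 6 to 10, 122 (10.3%) had 11 to 20 and 23 (1.94%) had 21 or more. The loci divided about evenly over the strands, with 596 on the plus and 588 on the minus strand, whereas 388 of the 650 single-exon loci had no strand. At the limit of the rule, the 247 loci with 2 exons had a median genomic span of 3996 bases and a median spliced length of 1273 bases, and the single-exon loci just outside it a median length of 798.5 bases.

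**Figure D1:**
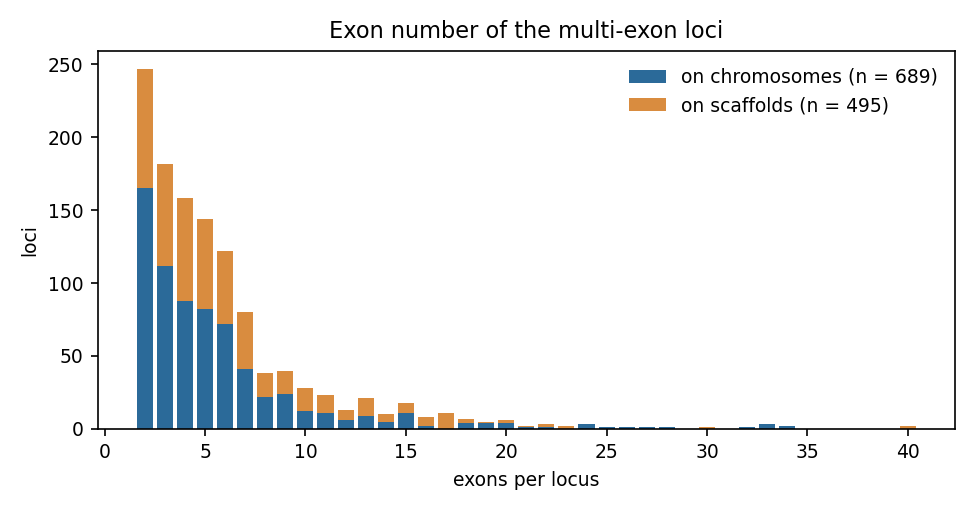
Number of loci (y axis) by exons per locus (x axis) for the 689 loci on chromosomes (blue) and the 495 on scaffolds (orange, stacked on top). The 2-exon class is the largest with 247 loci, and the 2 loci of 40 exons are both on scaffolds.

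The 2 loci of 40 exons lay on different scaffolds, which are sequences outside the assembled chromosomes, and spanned 17827 bases (BGI_novel_G001346) and 16126 bases (BGI_novel_G001551). Both carried the exon lengths of C4b, the gene of complement component 4B, which the liver makes and which marks targets for the complement cascade. In the first, 36 of 38 internal exons in a row had the lengths of C4b exons, and in the second 30 of 38. BGI_novel_G001552, which overlapped the second, matched both C4a and C4b, so exon lengths do not always tell these 2 genes apart. The next 3 by exon number, BGI_novel_G000711, BGI_novel_G000713 and BGI_novel_G000712, had 34, 34 and 33 exons and lay over each other on chr11:70663776-70700279, minus strand. BGI_novel_G000714, over the same place, and BGI_novel_G001077, over C4a on chromosome 17, also had 33 exons and were left out of the first 5 by the order of identifiers alone.

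The 3 loci on chromosome 11 ran through 3 genes. Of the 33 introns of BGI_novel_G000713, 33 were in GENCODE, 21 of them in Camta2, a transcription activator that binds calmodulin, 6 in Inca1, an inhibitor of cyclin-dependent kinase, and the other 6 in Spag7, and the genes were joined by exons that ran from one into the next. BGI_novel_G000711 had 32 of its 33 introns in GENCODE. In all, 15 of the 547 loci that shared an intron with GENCODE (2.74%) held introns of 2 or more genes and 6 (1.10%) held introns of 3 or more. The 15 lay over Camta2 and its neighbours, Neurl4 and Gps2, the pseudogenes Cyp2d37-ps and Cyp2d38-ps, and Gm20427, H2-Ke6 and Slc39a7. The last 3 genes were met by BGI_novel_G001063, with 9 of its 14 introns in Gm20427.

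The lengths of internal exons were close to those of the transcripts added to reference genes, and the introns, spans and spliced lengths were shorter. Internal exons of the loci had a median of 126 bases (quartiles 91 and 176, 4649 exons), against 125 bases (quartiles 90 and 170, 166270 exons) in the added transcripts. An internal exon whose length is divisible by 3 can be left out without a change of reading frame, and this held for 1840 of 4649 internal exons (39.6%) of the loci and for 41.3% of those of the added transcripts. The exons together had a median of 146 bases and ranged from 11 to 16005. First exons had a median of 217.5 bases and last exons of 640 bases, and in 759 of 1184 loci (64.1%) the last exon was the longest.

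Introns numbered 5833 and had a median of 756 bases (quartiles 217 and 2088), against 1309 bases (quartiles 433 and 3285) in the added transcripts. The first intron was the longer kind, with a median of 1361 bases against 657 bases for the later ones. Introns of 10 kb or more made up 285 of 5833 (4.89%), and 8.90% of the introns of added transcripts. The median genomic span was 7826.5 bases (quartiles 4020 and 17661, range 304 to 344216), and that of the added transcripts 35341 bases. The median spliced length was 1880 bases against 3951. Introns took a median of 74.1% of the span, against 89.1%. The added transcripts also had more exons, with a median of 13 (quartiles 8 and 21) against 5 (quartiles 3 and 7). Spans and spliced lengths were not compared at equal exon number. These values describe the loci and were not tested, since overlapping loci share exons and introns and are not replicates.

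**Figure D2:**
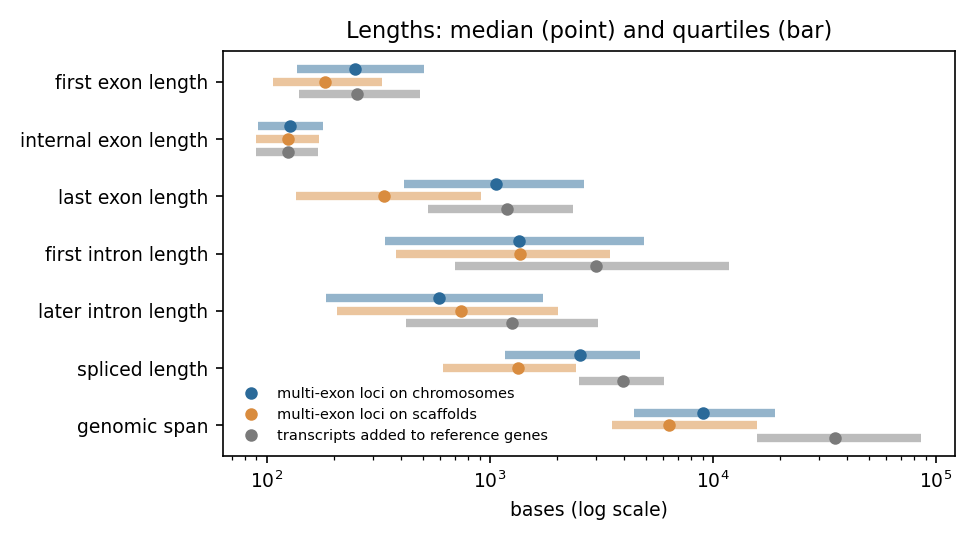
Median (point) and quartiles (bar) of exon, intron, spliced and genomic lengths in bases on a log axis, for loci on chromosomes (blue), loci on scaffolds (orange) and transcripts added to reference genes (grey). Internal exons lie together at 127, 124 and 125 bases, and the last exons of scaffold loci are shorter, with a median of 336 bases against 1067 on chromosomes.

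The longest loci were set by single introns. BGI_novel_G001809, on a scaffold, spanned 344216 bases with 8 exons and a spliced length of 1240 bases, and 1 intron took 293304 bases of it. The next 4 by span, BGI_novel_G000768, BGI_novel_G000769, BGI_novel_G000770 and BGI_novel_G000771, were overlapping chains of 9 to 11 exons on chr12:28898546-29189361, plus strand, of which the first is 290816 bases long, and they shared an intron of 211338 bases. They met the long non-coding RNA gene Gm31333 at their 3′ part, with 2 of 9 introns of BGI_novel_G000768 in GENCODE. The same 5 loci also had the longest introns. At the other end, 4 introns were under 50 bases, of 27, 30, 25 and 36 bases, and each was the only intron of a 2-exon locus on a chromosome, in 1 case the mitochondrial one.

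By spliced length the order was another. The 5 longest spliced loci lay over Cyp2d37-ps, with 27346 bases in BGI_novel_G000941, 27222 in BGI_novel_G000939, 27193 in BGI_novel_G000940, 25994 in BGI_novel_G000938 and 24763 in BGI_novel_G000948. In BGI_novel_G000941, only 750 bases of its 28096 were intron. GENCODE places Cyp2d37-ps on chr15:82688750-82693148, so most bases of these 5 loci lay outside it. The 5 shortest had 207 to 216 spliced bases. They included BGI_novel_G001125 (210 bases in 2 exons, chr17:48400453-48409707, minus strand), whose intron is one of Nfya, a subunit of the factor that binds CCAAT boxes, and BGI_novel_G000226 (215 bases in 3 exons, chr4:60822540-60839387, plus strand), which overlapped the exons of Gm21286 and shared no intron with it. The other 3 were 2-exon loci on scaffolds, BGI_novel_G001373, BGI_novel_G001765 and BGI_novel_G001604.

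On the chromosomes, most introns of the loci were known ones. GENCODE held 2678 of the 3195 introns of the 689 loci on chromosomes (83.8%), or 1733 of the 2060 distinct introns (84.1%). The whole chain of introns of 216 loci (31.3%) was that of a GENCODE transcript. A further 187 (27.1%) had only known introns in a combination or extent that no transcript had, and 144 (20.9%) had known and other introns. Another 79 (11.5%) overlapped an exon on the same strand without sharing an intron, 15 (2.18%) overlapped exons of the other strand only, and 48 (6.97%) overlapped none.

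**Figure D3:**
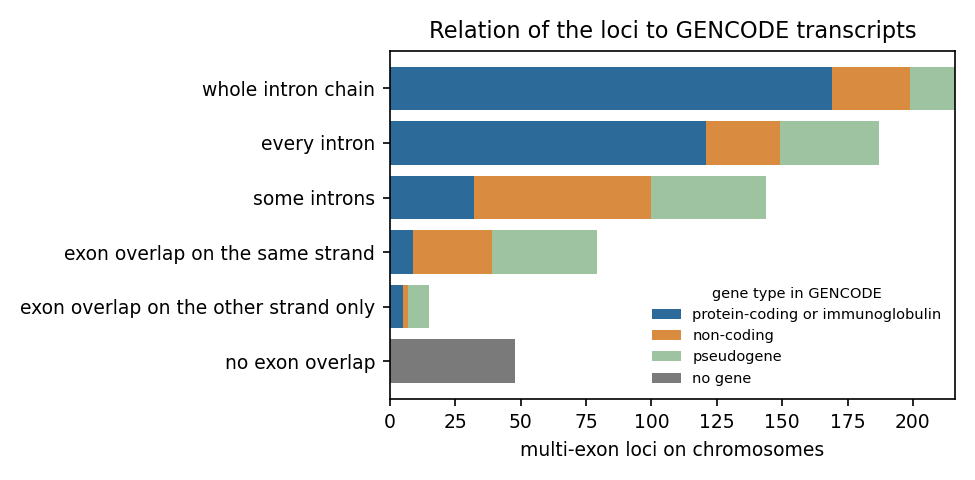
Number of loci on chromosomes (x axis) by their relation to GENCODE M21 transcripts (y axis), coloured by the type of the gene they matched best. The class with a whole intron chain is the largest with 216 loci, and the 48 loci without exon overlap have no gene.

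Of the 547 loci that shared an intron, 322 (58.9%) did so with a protein-coding or immunoglobulin gene, 126 (23.0%) with a non-coding gene and 99 (18.1%) with a pseudogene, over 303 genes. By name or synonym, 291 of the 303 genes (96.0%) were in RefSeq, so that most were known genes. Long intergenic non-coding RNA genes alone took 89. The transcripts with the whole intron chain were called protein-coding by GENCODE for 159 loci. The longest open reading frame of those 159 transcripts had a median of 254 codons, and 147 of them reached 100 codons. In the 57 matched transcripts of other types the median was 67 codons, and 20 reached 100. These frames were read from the GENCODE transcripts, whose ends differ from those of the loci. The highest was 1574 codons, in Cep170b, a protein of the centrosome and of microtubules. The types are the coding calls of GENCODE itself, which go with such frames. The difference between the types therefore does not bear on the coding prediction for the loci.

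The 48 loci without exon overlap had a median of 2 exons, a median span of 6291 bases and a median spliced length of 1596.5 bases, and 28 of them had 2 exons. By contrast, 32 of the 216 loci with a whole intron chain had 2 exons and 43 had 10 or more. The most exons among the 48, chosen after their values were seen, were the 6 of BGI_novel_G000429 and BGI_novel_G000430, which lay on chr7:37202472-37215693, minus strand, and shared their 3′ end. A pair of loci lay on the mitochondrial chromosome, whose genes have no introns, both on the minus strand from base 10. BGI_novel_G001260 ended at 11651 with an intron of 36 bases and BGI_novel_G001261 at 15280 with an intron of 6330 bases, and both overlapped transfer RNA genes of that strand.

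Some genes were met by many identifiers. C730036E19Rik, a long non-coding RNA gene on chromosome 1, shared introns with 18 loci, and the pseudogene Cyp2d37-ps on chromosome 15 with 18. Gm30262, a long non-coding RNA gene on chromosome 10, shared introns with 14 and 4732465J04Rik with 7. Among protein-coding genes the numbers were lower. Camta2 and Gm33543 had 6 each, Gemin5, a part of the complex that assembles spliceosomal ribonucleoproteins, had 5, and so did Srsf1, a splicing factor, and Mup9. Of the 303 genes, 190 (62.7%) met 1 locus.

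Many of these identifiers were alternative chains of the same place, but the 5 over Gemin5 lay in 3 places. When loci that overlapped on the same strand were joined, the 1184 loci became 752, of which 535 held 1 identifier and 217 held 2 or more. The 217 held 649 of the identifiers (54.8%). The group over C730036E19Rik held 19 identifiers on chr1:151128644-151145387, plus strand, with 4 to 7 exons, 13 distinct introns and no intron common to all. The group over Cyp2d37-ps held 18 on chr15:82677128-82707357, minus strand, with 4 to 8 exons, 15 distinct introns and 1 common to all. The intron of C730036E19Rik printed above was in 7 of the loci and that of Cyp2d37-ps in 5.

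**Figure D4:**
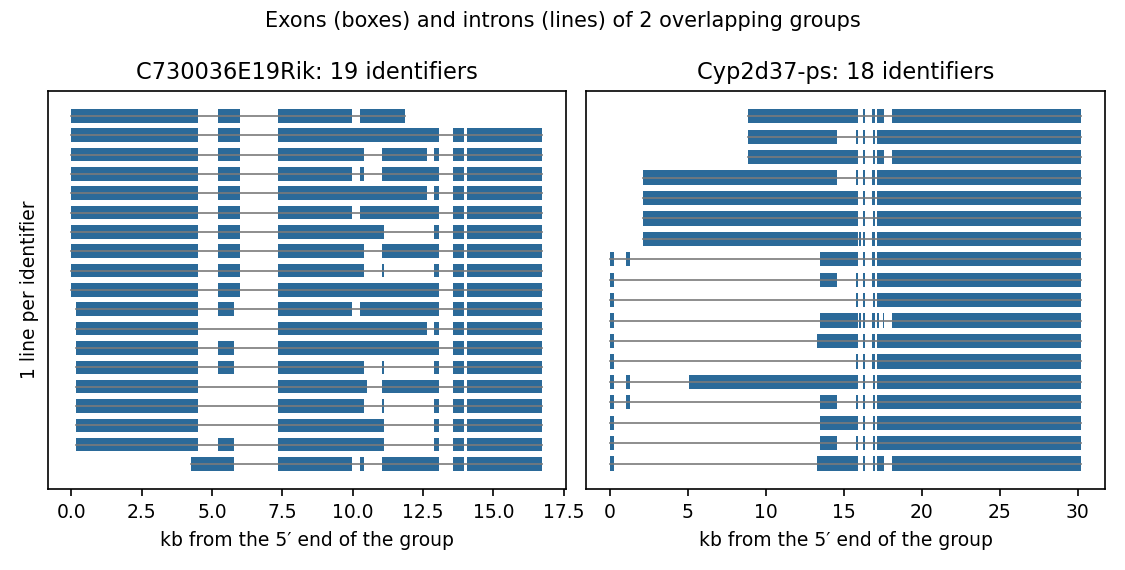
Exons (boxes) and introns (lines) of the loci in the 2 largest overlapping groups, 1 line per identifier, by distance from the 5′ end of the group in kb. The 19 chains over C730036E19Rik and the 18 over Cyp2d37-ps start at few places and differ in which inner exons are joined or left as 1 long exon.

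The immunoglobulin heavy chain region held 10 identifiers in 1 overlapping group, chr12:113258712-113430107, minus strand, with 4 to 7 exons, 21 distinct introns and none common to all. They shared introns with the constant region genes Ighm, Igha, Ighg2b and Ighg2c, which encode parts of antibodies and are transcribed in B cells and plasma cells, not in hepatocytes. BGI_novel_G000803, a chain of 4 exons over Igha, spanned 171245 bases through an intron of 169544 bases. The T and B cell markers in the gene table summed to 504 (control) and 468 (erythrodiol) counts, and which cells gave these chains was not tested.

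Most loci lay within 100 kb of another. The same share was not computed for the added transcripts or the single-exon loci. Clustering is therefore not shown to be particular to these loci. With a gap of at most 100 kb between neighbours on either strand, 1010 of the 1184 loci (85.3%, exact binomial 95% interval 83.2% to 87.3%, counting error only) were in 204 clusters of 2 or more, and 174 were alone. The clusters had a median of 3 loci, and 30 of them had 10 or more and held 418 loci. The overlapping chains were a part of this. The interval takes each locus as independent, which overlapping chains are not. Of the 752 places left after joining them, 491 (65.3%) still lay within 100 kb of another. Between neighbours on a sequence the median gap was 2340 bases, and 456 of 1096 neighbouring pairs (41.6%) overlapped.

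The largest cluster, chr15:82635617-82782167, held 27 loci in 5 places, and 19 of them met Cyp2d37-ps. Genes of the Cyp2d family make enzymes that oxidise drugs and steroids, and their mouse cluster holds many pseudogenes. Its first locus, BGI_novel_G000928, had 9 exons, the most of the cluster, and BGI_novel_G000929 had 8, both over Gm27463 without a shared intron. Its last, BGI_novel_G000954, was a 2-exon locus whose intron is one of Cyp2d41-ps. The next cluster was the group of 19 over C730036E19Rik, from BGI_novel_G000038 to BGI_novel_G000056, in 1 place, with 7 exons in BGI_novel_G000040 and in BGI_novel_G000041.

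The third cluster, chr17:34601182-34932461, also held 19 loci, in 8 places and over 10 genes. It lies in the major histocompatibility region and ran from BGI_novel_G001071 over Rnf5, a ubiquitin ligase, to BGI_novel_G001089 over Neu1, a lysosomal sialidase. The most exons were the 33 of BGI_novel_G001077, with 32 of 32 introns in C4a, and the 28 of BGI_novel_G001082, whose 27 introns were the whole chain of Skiv2l, a helicase that works with the RNA exosome. Others met Ehmt2, a histone methyltransferase, with 4 loci, and the complement genes C2 with 2 and Cfb with 1. A cluster on a scaffold had 19 loci as well and was placed after it by the names of the sequences.

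By chromosome, number 17 had most, with 118 loci, or 1.29 per Mb of the extent that the annotation covered. The density over the 21 nuclear chromosomes together was 0.261 per Mb and their median 0.193. Chromosome 11 followed with 79 loci (0.667 per Mb), chromosome 15 with 48 (0.479) and chromosome 4 with 64 (0.418). Chromosome X had 8 loci (0.0493 per Mb) and Y had 2 (0.0223 per Mb). After overlapping loci were joined, chromosome 17 still led with 0.763 per Mb, followed by 11 with 0.380, 4 with 0.235 and 15 with 0.190. Set against the transcripts added to reference genes on the same chromosome, chromosome 17 had 19.2 loci per 100, chromosome 15 had 11.03 and chromosome 9, the lowest, 1.80. Chromosome Y had 28.6 per 100, from 2 loci and 7 transcripts.

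**Figure D5:**
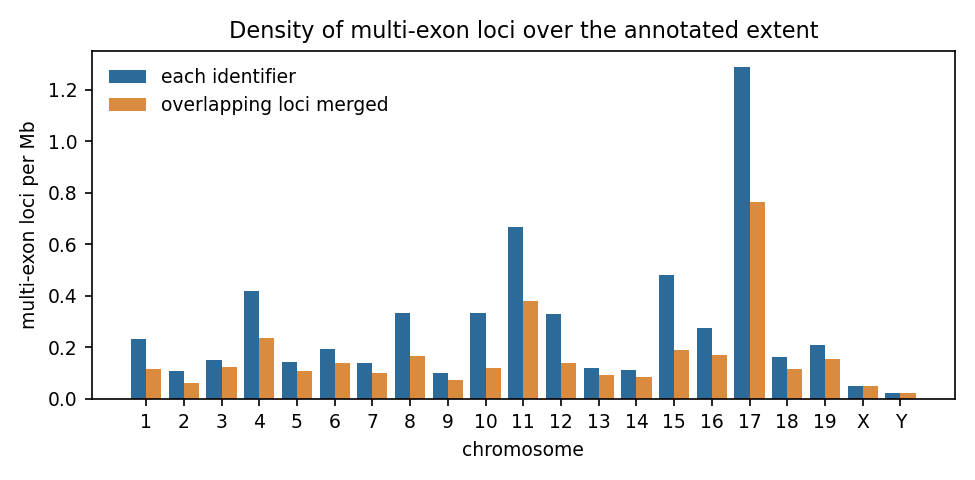
Multi-exon loci per Mb of annotated extent (y axis) by chromosome (x axis), counting each identifier (blue) or 1 per overlapping group (orange). Chromosome 17 is highest on both counts, with 1.29 and 0.763 per Mb, and joining lowers chromosome 15 from 0.479 to 0.190.

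On chromosome 17, 52 of the 118 loci (44.1%) lay between the first and the last gene whose name starts with H2, chr17:33974659-37483552, in 32 places. Many of the H2 genes encode the histocompatibility antigens that present peptides to T cells, and neighbouring genes load those peptides. Others with such a name are pseudogenes, such as H2-K2 and H2-T-ps. Of the 52 loci, 45 had a protein-coding gene as their best match. They met the class I genes H2-K1, H2-D1, H2-Q6, H2-Q7 and H2-Q10 and the class II genes H2-Aa, H2-Ab1 and H2-Eb1. They also met Tap1 and Tap2, the transporter of peptides, and Psmb8 and Psmb9, subunits of the immunoproteasome, each with 1 locus.

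On chromosome 4, 28 loci met 12 genes and pseudogenes of the major urinary proteins, between 60157257 and 62087389, with 2 to 7 exons and a median span of 3925 bases. Of the 28, 21 shared an intron. Of 7 liver genes that were searched for a locus on the same strand within 100 kb, Mup1 had one and 6 had none. The locus was BGI_novel_G000224, a 2-exon chain of Mup9 on chr4:60420785-60422074, minus strand, 75937 bases from Mup1. The junctions printed above show how alike these genes are. Over the 80 bases, Mup13 and Mup15 differed at 1 base, Mup13 and Mup16 at 1 and Mup15 and Mup16 at 2, and the intron had 338 bases in each.

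In the deposited gene table, Mup15 had 607551 expected counts with the control diet and 312445 with erythrodiol, Mup16 had 180481 and 84387, and Mup9 had 24454 and 11830. Mup14 had 1400228 and 757127, Mup3 had 1034893 and 624817 and Mup13 had 2115 and 752. These 6 values were lower with erythrodiol, and the share of all genes that were lower is not given here. The sums of the 6 Kupffer cell markers (106836 and 66670) and of the 4 neutrophil markers (1150 and 529) were lower too. So were the bile duct (1806 and 1494), stellate (52325 and 50762) and T and B cell sums (504 and 468). The hepatocyte (13676188 and 14187191) and endothelial sums (15169 and 15609) were higher. Not all members went with their sum. Of the stellate list, Dcn and Lrat were lower, and Reln, Des and Col1a1 higher. Of the T and B cell list, Cd3d and Ms4a1 were lower, and Cd3e and Cd79a higher. Of the endothelial list, Clec4g and Lyve1 were lower, and Stab2 and Pecam1 higher. Of the hepatocyte list, Alb alone was lower. The part of the cell types in the Mup counts was not tested. Each value is pooled over a group, out of totals of 122889032 and 124686047 counts, with no replicate check, and they count the reference genes and not the loci. How reads were divided among such near-identical copies is uncertain.

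Some of the genes met by chromosome loci had their reference identifier on a scaffold. The annotation placed the transcripts added to 4886 reference genes on chromosomes only, those of 125 genes on scaffolds only and those of 8 on both. Of the 125 genes with added transcripts on scaffolds only, 64 (51.2%) were protein-coding genes that shared introns with a chromosome locus, against 2 of the 4886 on chromosomes only (0.0409%). The 64 were also 34.0% of the 188 protein-coding genes that shared introns with loci. By chromosome, 17 of the 64 belonged to chromosome 17, 16 to chromosome 11, 9 to chromosome 6 and 8 to chromosome 4.

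Camta2 was one of them. It had 6 loci on chromosome 11, of 15 to 34 exons, and 10 transcripts under its reference identifier on a scaffold and 0 on chromosome 11. Of the 188 protein-coding genes, 178 (94.7%) had a row in the gene table, where Camta2 had 4760 counts with the control diet and 6396 with erythrodiol. Whether the place of the reference identifier decided which chains became loci was not tested.

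On scaffolds lay 495 of the 1184 loci (41.8%), against 78 of the 650 single-exon loci (12%) and 271 of the 11605 transcripts added to reference genes (2.34%). They were spread over 66 scaffolds, of which 16 held a single locus, and the 3 with most held 146 of the 495 (29.5%). Scaffold loci had a median of 5 exons, against 4 on chromosomes, a median spliced length of 1345 bases against 2531 and last exons of 336 bases against 1067. Their internal exons had a median of 124 bases and those of chromosome loci 127. Within 100 kb of another were 93.1% of scaffold loci and 79.7% of chromosome loci.

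Scaffold loci were not laid on GENCODE by position, since only its chromosome file was used here, and they were named by the order of their exon lengths. A locus with at least 4 internal exons was matched to a gene when its internal exon lengths all stood in the same order in a transcript of that gene. On chromosomes, where the position gives the answer, 110 of 113 loci matched to 1 gene (97.3%) were matched to the gene at their place. A locus with the introns of a GENCODE transcript also has its internal exon lengths. This share therefore cannot tell how often matches on scaffolds are right. Of the 211 scaffold loci long enough, 137 matched 1 gene, 19 matched several and 55 matched none. With the longest shared run of at least 4 exons in place of the whole string, 169 matched 1 gene. On chromosomes 136 of 139 (97.8%) were then matched to the gene at their place, with the same limit. On a scaffold, the run gave BGI_novel_G001453 to Kif1a, though it overlapped BGI_novel_G001452, given to Kif1b, on the same strand.

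The 137 loci matched 103 genes, which GENCODE places above all on chromosome 4 with 44 loci and 31 genes, chromosome 17 with 26 loci and 23 genes, chromosome 11 with 14 loci and chromosome 16 with 12. Of the 103 genes, 102 had a row in the gene table under their own identifier and 47 (45.6%) had added transcripts on their chromosome. Only 6 of the 103 also shared introns with a chromosome locus. Of the 211 loci long enough, 66 (31.3%) repeated the internal exon lengths of a transcript that the authors had added to a reference gene on a chromosome, and 11 (5.21%) those of a chromosome locus.

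The scaffolds carried runs of neighbouring genes. The one with 50 loci, the second by number, held no transcript added to a reference gene. Its 26 matched loci all gave genes of chr4:147860778-149702571. Its 15 genes included Mtor, the kinase of nutrient signalling, Exosc10, a nuclease of the RNA exosome, Tardbp, an RNA-binding protein, and Mfn2, which joins mitochondria. The scaffold with 53 loci and that with 43 gave 6 and 13 matched loci, all to genes of chromosome 17 between 34031812 and 35989462, such as Rxrb, C4b, Brd2, Flot1 and H2-Q10. That with 31 loci gave 8 matched loci, all to chromosome 4, such as Yars, a tyrosyl transfer RNA synthetase.

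Of the 74 scaffold loci with at least 11 exons, 47 had all internal exon lengths in the order of a GENCODE transcript, 71 had a run of over 50% of them and 3 had not. BGI_novel_G001644 had 23 exons, and its 21 internal exons had the lengths of Cps1, which makes carbamoyl phosphate for the urea cycle and is among the most abundant enzymes of hepatocyte mitochondria. BGI_novel_G001703, also of 23 exons, carried 21 of 21 from Kif1c, a kinesin motor, and BGI_novel_G001452, of 30 exons, 20 of 28 in a row from Kif1b. BGI_novel_G001701, of 17 exons, carried 15 of 15 from Per3, a gene of the circadian clock. These 4 were chosen after their values were seen. In the gene table, Cps1 was one of the 8 hepatocyte markers. The major urinary proteins were on scaffolds too, where the internal exon lengths of 6 loci were those of chromosome loci over Mup genes, and a single gene could not be given to them.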

How the data were processed

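Liver RNA of 14 pools was sequenced on the BGISEQ-500, and the authors mapped reads with HISAT, assembled transcripts with StringTie, compared them with the reference using Cuffcompare of Cufflinks and scored coding potential with Coding Potential Calculator. The authors deposited 1 annotation of assembled coding transcripts for all libraries, with coordinates of GRCm38 counted from 1. They also deposited counts of clean reads and mapping rates in percent per library, and an expected count per gene and group from Bowtie2 and RSEM, summed over the libraries. Beside it stand the authors' log2 ratio, p-value and q-value, which were not used. Other deposited tables were not used here.

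Exon and intron lengths, spans, overlaps and clusters (gap of at most 100 kb) were computed with Python 3.11.15, and introns were compared with GENCODE M21, base by base. Intervals used scipy 1.17.1 and plots matplotlib 3.10.9. The code was tested on simulated data. Scaffold loci were matched by at least 4 internal exon lengths. Gene names were joined through RefSeq names and synonyms, of which 185 of 188 protein-coding genes had one.

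The named loci are the 5 of most exons, longest span, longest spliced length, longest intron and shortest spliced length (ties by identifier), the first, the last and the 2 of most exons in the 3 largest clusters, and the nearest to 7 liver genes. The members and lists were chosen with earlier results of these data known. A comparison of the diets by locus had been planned and was not made, since the gene table lists 0 of the loci. No test across loci was made. Splice-site bases were not read, since no genome sequence was used here.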

Additional observations from a re-analysis of the deposited data

Results flagged for a closer look

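In the library of control replicate 3, 76.66% of the clean reads mapped to the genome, and the gap to the next control library was 0.852 of the range of the 7 libraries, which set it apart from its group. Chance sets apart about 1 in 20 groups by this rule, and 6 sets of values were looked at. The annotation was assembled over all libraries together, so that the share of this library in the loci is not known.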

How the results depend on the processing

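The number of loci was 937 with at least 3 exons, 752 after loci overlapping on the same strand were joined and 728 after joining on either strand, against 1184. The share of loci in a cluster, 85.3%, was 74.8% with a gap of 10 kb, 81.8% with 50 kb, 89.7% with 500 kb, 81.8% on the same strand only and 88.5% with single-exon loci as neighbours too. The median exon length of 146 bases was 126 for internal exons only and 174 as the median of locus medians. The median intron length of 756 bases stayed at 756 without introns under 50 bases and was 981.5 as the median of locus medians. The median span of 7826.5 bases was 9680 with at least 3 exons, and the density of 0.261 per Mb was 0.151 after joining. Added after seeing the data, the share in a cluster was 65.3% of joined loci, 79.7% on chromosomes and 93.1% on scaffolds, the median intron was 812 bases with each of 4023 distinct introns counted once, and the median span was 7204.5 bases for joined loci. No paired analysis was possible because the annotation was made once for all libraries and holds no value per library. For the same reason no library was left out, and other settings for the levels of the loci were not run. The depth behind each exon is not given in the annotation, so that chains resting on few reads cannot be told from others.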
